A study of Mus musculus with 6 samples.

Results

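Siglecs are receptors of the immunoglobulin superfamily that bind sialic acid, the sugar at the tips of many cell surface glycans. The mouse Siglec genes described here were chosen by name: Siglec15, Siglech, Siglec1, Siglece, Siglecg, Cd33, Mag and Siglec5. Of these 8 names, 7 are gene names on the arrays, out of 37074 gene names in all, and they carry 14 of the 56605 probes. Siglec5 is not a gene name on the arrays. RefSeq lists it as an older name of both Siglece and Siglecf, so the 2 probes of Siglecf are described beside the members but not counted with them.

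Siglecs fall into receptors that activate and receptors that inhibit. Siglec-15 and Siglec-H have short tails and signal through the adaptor DAP12 (gene Tyrobp), whose ITAM motif recruits the kinase Syk. Siglec-E and Siglec-G carry ITIM motifs, which recruit the phosphatases SHP-1 and SHP-2. Mouse CD33 is related to them but lacks the classical ITIM of its human counterpart. Siglec-1 (sialoadhesin) has a long extracellular part, lacks such motifs and binds sialylated cells and particles. MAG is the Siglec of myelin-forming glia. In bone, Siglec-15 is known as a surface receptor of osteoclasts that supports their fusion and maturation together with DAP12.

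RNA came from osteoclasts grown from mouse bone marrow and induced by RANKL for 5 days. There were 3 Ano1fl/fl mice, in which the chloride channel gene Ano1 is floxed but no Cre is present, and 3 Ctsk-Cre;Ano1fl/fl littermates, in which a Cre driven by the cathepsin K promoter, active in osteoclasts, is added. The methods give the general culture as cells of 6 to 8 week old mice in 50 ng/ml RANKL and 30 ng/ml M-CSF. Each mouse gave 1 one-colour Agilent array, all 6 on 1 slide, so the 3 arrays of a group are separate mice, and their number limits the precision of every value.

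The labels could be checked only in part. The Ano1 probe was well above background on 0 of 6 arrays, with processed signals of 3.22 to 3.91, so it could not be used to check the genotype. Of 12 osteoclast markers, 12 rose on the arrays that carry the label Ctsk-Cre;Ano1fl/fl, with a median difference of 2.85 on the log2 scale, from 0.53 for Nfatc1 to 6.48 for Oscar among the 11 that were well above background on all 6 arrays. This direction is opposite to the one in which the study describes osteoclast formation in these mice, and every direction given here rests on the labels as deposited. Of the 2 probes of Nfatc1, the master regulator of osteoclast formation, the brighter rose by 0.53 (adjusted p = 0.00395) and the other fell by 0.53 (adjusted p = 0.0138), so that their mean came to -0.0026. The other osteoclast markers kept their direction under the alternatives tried. Stromal markers also differed, with 10 of 10 higher on those arrays and a median difference of 4.38, Col1a1 among them at 6.12. Their summed normalized signal was 2900 to 3601 on the Ano1fl/fl arrays and 63814 to 106030 on the others. By the brightest probe of each gene, as these lists are counted, 23% of all 20645 genes tested rose and 28.5% fell. The labels name the cell type as bone marrow cells, and in such a mixed culture fewer cells of a type and less RNA per cell cannot be told apart.

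Values are log2 processed signals after quantile normalization between the 6 arrays, and a difference is the mean of the Ctsk-Cre;Ano1fl/fl arrays (the Ctsk-Cre arrays) minus the mean of the Ano1fl/fl arrays. Levels of different probes are not compared with each other, since each probe hybridises with its own strength. A summed signal of a list follows its brightest probes most, so it does not stand for every gene of the list. The scanner software marks each spot that stands clear of the background, here called well above background, and a probe was tested if it had this mark on all 3 arrays of at least 1 group. It is said to have risen or fallen where limma gave an adjusted p under 0.05 over all 31848 probes tested. Of the 14 Siglec probes, 12 were tested, at least 1 for each of the 7 genes. In all, 5 of the 12 rose, beside 21.8% of all probes tested, and 5 fell, beside 30.6%. A change of more than 2-fold was seen for 3 of the probes that rose, beside 8.91% of all probes, and for 4 that fell, beside 8.11%. For 1 of these 4, the Siglech probe A_55_P2734922, the fitted size rests on readings below background and its bound is under 2-fold. The 2 groups did not overlap at 10 of the 12 probes, beside 64% of all probes. The median difference of the 12 was -0.23, beside -0.09 for all probes tested. Several probes share 1 gene, so these counts are not counts of independent members. By gene, 5 of 7 had a probe that rose, beside 25.8% of all genes tested, and 2 had a probe that fell, beside 34.9%.

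**Figure D1:**
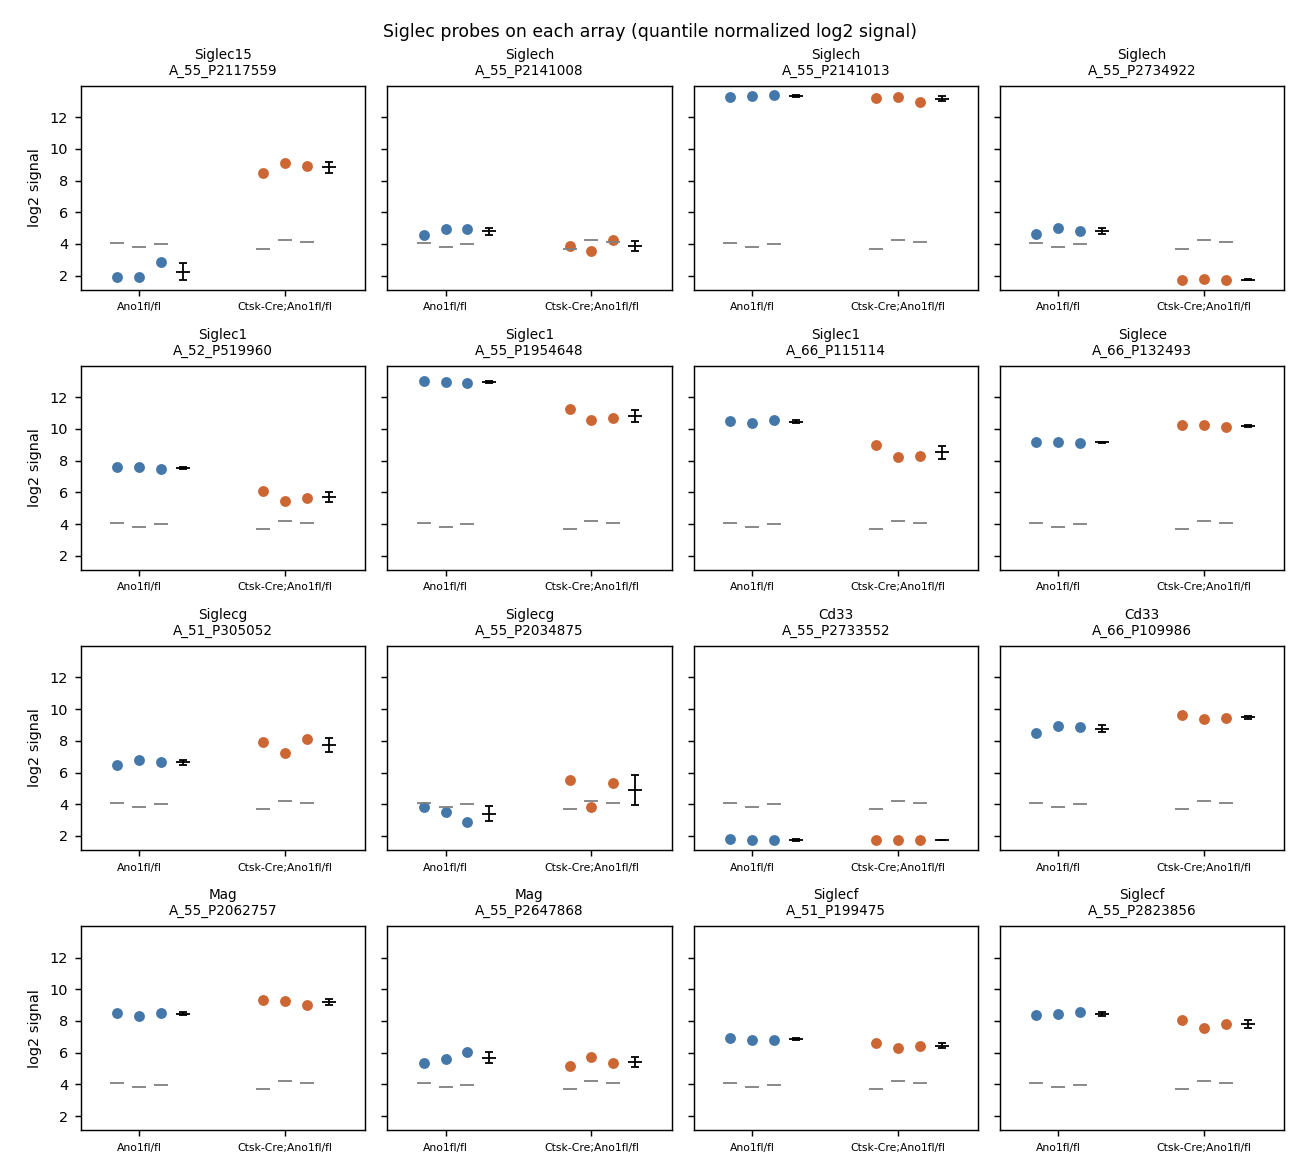
Quantile normalized log2 signal (vertical axis) of each Siglec probe and of the 2 Siglecf probes on the 3 Ano1fl/fl arrays (blue) and the 3 Ctsk-Cre;Ano1fl/fl arrays (orange), with the group mean ± SD in black. Grey dashes mark, for each array, its lowest signal that was well above background. Siglec15 lies below them on the Ano1fl/fl arrays and near 9 on the Ctsk-Cre arrays, and the 3 Siglec1 probes are all lower on the Ctsk-Cre arrays.

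Siglec15 showed the largest difference of the members tested. Its 1 probe lies on chromosome 18 of the mm9 build, from 78240353 to 78240412. The Ano1fl/fl arrays read 1.94, 1.91 and 2.85, while the Ctsk-Cre arrays read 8.46, 9.12 and 8.90. The groups were far apart, and the probe was well above background on 0 of 3 Ano1fl/fl arrays and on 3 of 3 Ctsk-Cre arrays. Against the lowest signals that were well above background on the Ano1fl/fl arrays, Siglec15 was at least 29.0-fold higher on the Ctsk-Cre arrays, a bound that holds for the processed signals used here. The fitted difference was 6.59 (SE 0.30, n = 3 per group) with a limma adjusted p of 2.37e-05, and its size, SE and adjusted p depend on readings that lie below background. With normexp background correction it was 2.95 and with the series matrix values 3.72, both smaller than that bound and both past the test.

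The same arrays carried the other osteoclast genes at a higher level. Calcr, the calcitonin receptor, rose by 8.89, from 3.85, 4.36 and 4.14 to 12.71, 13.33 and 12.98, and was well above background on 2 of 3 Ano1fl/fl arrays, so that this size rests in part on a reading below background. Oscar, an osteoclast receptor that signals through an ITAM adaptor, rose by 6.48, and Mmp9, a matrix protease, rose by 4.36. The summed normalized signal of the 12 osteoclast markers was 211900 to 229270 on the Ano1fl/fl arrays and 608700 to 688880 on the Ctsk-Cre arrays. Tyrobp, which encodes the adaptor shared by Siglec-15 and Siglec-H, did not move with them. It read 16.66, 16.53 and 16.62 on the Ano1fl/fl arrays against 16.71, 16.63 and 16.51 on the Ctsk-Cre arrays, a difference of 0.01 (95% interval -0.20 to 0.22, adjusted p = 0.928). Whether the change in osteoclast markers accounts for that of Siglec15 was not tested.

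**Figure D2:**
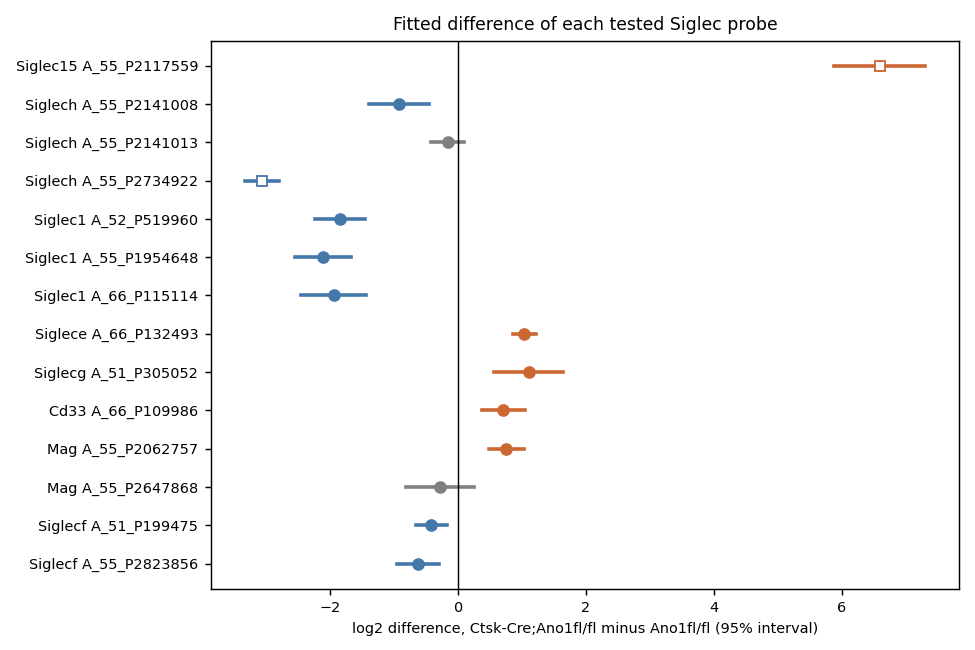
Fitted log2 difference, Ctsk-Cre;Ano1fl/fl minus Ano1fl/fl (horizontal axis), with its 95% interval for each tested probe; orange rose, blue fell and grey did not pass the test, and open squares mark probes below background on all arrays of 1 group, whose fitted size is not a bound. The intervals of 1 Siglech probe and 1 Mag probe cross 0.

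Siglech, the Siglec of plasmacytoid dendritic cells, had 3 probes that gave different results, and their sequences show how the probes differ. The array holds 60 bases per probe, all 3 on chromosome 7 of mm9. The following are 30-base stretches of each, 5′ to 3′, and capitals mark bases that lie in a run of 16 or more bases found also in the probe of another gene.
Siglech A_55_P2734922, bases 1 to 30: caaaacatggaatttctgtgaggaaaggat
Siglech A_55_P2141008, bases 1 to 30: attggattaatccagtgtgtgaacagtctt
Siglech A_55_P2141013, bases 31 to 60: TCTGTCTCAAAGAAAGAAAGAAAGAAAGAA

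The first probe spans 225 bases of the genome, from 63024045 to 63024269, with its 60 bases, and therefore crosses an intron of the transcript. The second lies at 63028608 to 63028667 and the third at 63034088 to 63034147. The first and second share no run of 16 bases with the probe of any other gene. In the third, all 60 bases lie in such runs, shared with the probes of 16 other genes, and 0.645% of the probes on the array share with that many or more. Runs of 16 or more of its bases are also found in the RefSeq promoter windows (GRCm38.p6) of 37 other genes out of 27025. For the first probe this number was 1 and for the second 0. The printed stretch of the third ends in a simple repeat of the bases AAAG.

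The 2 Siglech probes with a sequence of their own fell. The junction probe A_55_P2734922 read 4.61, 5.00 and 4.79 on the Ano1fl/fl arrays against 1.71, 1.76 and 1.74 on the Ctsk-Cre arrays. It was well above background on 3 of 3 and 0 of 3 arrays, so the fall was at least 1.74-fold, again for the processed signals used here. The fitted difference was -3.06 (SE 0.11, adjusted p = 1.28e-05), and with normexp it was -0.45 and with the series matrix values -0.81, both smaller in size and both past the test. The Ctsk-Cre readings lie below background, so this SE and adjusted p do not measure the spread between mice in that group. The probe A_55_P2141008 read 4.54, 4.91 and 4.96 and then 3.86, 3.55 and 4.21, a difference of -0.93 (SE 0.20, adjusted p = 0.00828). It was well above background on 3 of 3 Ano1fl/fl arrays and on 1 of 3 Ctsk-Cre arrays, so that this size rests in part on readings below background, and it was -0.24 with normexp and -0.28 with the series matrix values. Both probes were thus close to background, with the Ano1fl/fl arrays above the Ctsk-Cre arrays and no overlap.

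The repeat-rich Siglech probe A_55_P2141013 read 13.24, 13.34 and 13.39 on the Ano1fl/fl arrays against 13.22, 13.29 and 12.97 on the Ctsk-Cre arrays. The groups overlapped, and the difference of -0.17 (95% interval -0.42 to 0.09) had an adjusted p of 0.236. It is the brightest of the 3, so a rule that keeps the brightest probe of each gene would report Siglech by this probe alone. How much of its signal comes from Siglech transcripts was not tested.

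Markers of plasmacytoid dendritic cells were compared beside the 2 falling Siglech probes. Of 9 such markers, 4 rose and 0 fell, beside 23% and 28.5% of all genes by brightest probe. The other 5 did not pass the test, and the median difference was 0.23. The largest rises were Ly6d at 2.81, Spib at 1.91 and Cox6a2 at 1.86, while the rise of Pacsin1, 0.25 (adjusted p = 0.0433), was lost when any 1 array was left out. Irf8, a transcription factor of these cells, had a difference of 0.23 at its brightest probe (adjusted p = 0.333), and its other probe fell by 0.60 (adjusted p = 0.0144). Without Ctsk-Cre;Ano1fl/fl replicate 2 the brightest Irf8 probe passed the test, at 0.43 (adjusted p = 0.0239). Tcf4, another such factor, had a difference of 0.13 at its brightest probe (adjusted p = 0.304), and 1 of its 4 tested probes rose. Bst2, the tetherin that marks these cells in the resting mouse, had a difference of -0.04 (adjusted p = 0.703). Summed over the 9, the normalized signal was 91544 to 96050 on the Ano1fl/fl arrays and 99074 to 119730 on the Ctsk-Cre arrays. Ly6d and Spib are also expressed in B cells, whose markers rose on the Ctsk-Cre arrays. The part of B cell RNA in the rises of Ly6d, Spib and Cox6a2 was not tested.

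Siglec1, the sialoadhesin of tissue macrophages and a gene known to respond to interferon, fell at all 3 of its probes. The probe at transcript position 6190 (A_55_P1954648) read 13.00, 12.96 and 12.90 on the Ano1fl/fl arrays against 11.26, 10.57 and 10.69 on the Ctsk-Cre arrays. The probe at position 5552 (A_66_P115114) read 10.49, 10.38 and 10.54 and then 9.01, 8.25 and 8.30. The probe at position 1417 (A_52_P519960) read 7.59, 7.58 and 7.47 and then 6.06, 5.43 and 5.63. At each probe the Ano1fl/fl arrays lay close together and the 3 Ctsk-Cre arrays were all lower, with replicate 1 the highest of them.

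The fitted differences of Siglec1 were -2.12 (SE 0.18, adjusted p = 0.000255), -1.95 (SE 0.21, adjusted p = 0.000573) and -1.84 (SE 0.16, adjusted p = 0.000284) in the same order. These are falls of 4.34-fold, 3.86-fold and 3.59-fold, and their 95% intervals overlap. With normexp, the dimmest of the 3 probes, at position 1417, gave -1.1, and it still passed the test. All 3 probes were well above background on all 6 arrays. They lie on chromosome 2 of mm9 at 130895093 to 130895152, 130897963 to 130898022 and 130909693 to 130909752, and they read 1 transcript, so they are 3 measurements of the same mice and not 3 replicates.

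Macrophage markers moved unevenly beside Siglec1. Of 10 markers, 4 fell and 1 rose, beside 28.5% and 23% of all genes by brightest probe. The other 5 did not pass the test, and the median difference was -0.08. Cx3cr1, the fractalkine receptor of monocytes and resident macrophages, fell by 4.62, from 14.37, 14.16 and 14.03 to 10.13, 9.34 and 9.22. Ccr2, the receptor of inflammatory monocytes, fell by 3.36 and Mrc1, the mannose receptor, fell by 1.36. Adgre1, which encodes a surface antigen of mature macrophages, rose by 0.80. The rises became 2 without Ano1fl/fl replicate 3, with Mertk (0.28, adjusted p = 0.0545) then passing, and 2 to 3 under several other settings, with Mertk or Cd68 (0.20, adjusted p = 0.0711) or both. Summed over the 10 markers, the normalized signal was 381050 to 396900 on the Ano1fl/fl arrays and 385110 to 430400 on the Ctsk-Cre arrays, and these ranges overlap.

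The interferon response did not move as 1 group. Of 10 of its genes, 4 fell and 1 rose, beside 28.5% and 23% of all genes by brightest probe. The other 5 did not pass the test, and the median difference was -0.05. The falls became 2 without Ano1fl/fl replicate 2 and with the methods' t-test, with Ifit3 and Mx1 (-0.71, adjusted p = 0.0401, groups overlapping) no longer passing. The largest falls with groups apart were Ifi44 at -0.80, Ifit3 at -0.76 and Irf7 at -0.46, and Usp18 rose by 0.37. The falls of Siglec1 were larger than any of these, a difference that was not itself tested. The summed normalized signal of the list was 330570 to 409420 on the Ano1fl/fl arrays and 310720 to 335990 on the Ctsk-Cre arrays. Whether the macrophage or interferon genes bear on the fall of Siglec1 was not tested.

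Siglece, Siglecg and Cd33 each had a probe that rose. Siglece, the inhibitory Siglec of mouse myeloid cells, read 9.17, 9.16 and 9.14 on the Ano1fl/fl arrays against 10.23, 10.23 and 10.12 on the Ctsk-Cre arrays. It showed the narrowest spread of the members that rose, and the difference of 1.04 (SE 0.07, adjusted p = 0.000111) is a rise of 2.05-fold. Its 1 probe lies on chromosome 7 of mm9 at 50906669 to 50906728.

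Cd33, a myeloid receptor that gave the CD33-related Siglecs their name, had 2 probes. The probe A_66_P109986, at 50783849 to 50783908 on chromosome 7, read 8.49, 8.94 and 8.89 on the Ano1fl/fl arrays against 9.61, 9.40 and 9.43 on the Ctsk-Cre arrays. The groups did not overlap, and the difference was 0.71 (SE 0.14, adjusted p = 0.00681), a rise of 1.63-fold. The other probe, A_55_P2733552, was well above background on none of the 6 arrays, at 1.72 to 1.79, and was not tested.

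Siglecg, the Siglec known for restraining signaling in B cells, read 6.47, 6.76 and 6.69 on the Ano1fl/fl arrays against 7.90, 7.24 and 8.09 on the Ctsk-Cre arrays at the probe A_51_P305052. The 3 Ctsk-Cre arrays were all higher, but replicate 2 lay close to the Ano1fl/fl arrays. The difference was 1.1 (SE 0.22, adjusted p = 0.00721), a rise of 2.15-fold, and its 60 bases span 5144 bases of chromosome 7, from 50668051 to 50673194, and so cross at least 1 intron. The dimmer probe A_55_P2034875 read 3.83, 3.50 and 2.87 and then 5.54, 3.81 and 5.34. It was well above background on 0 of 3 and on 2 of 3 arrays and was not tested, and here too replicate 2 was the lowest of the Ctsk-Cre arrays and overlapped the Ano1fl/fl arrays.

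B cell markers rose on the same arrays. Of 7 markers, 7 rose, beside 23% of all genes by brightest probe, with a median difference of 2.85. Fcrla read 7.87, 7.95 and 7.97 on the Ano1fl/fl arrays against 11.28, 10.55 and 11.70 on the Ctsk-Cre arrays, a difference of 3.25 (SE 0.28, adjusted p = 0.000239). Blk, a kinase of B cells, was well above background on 1 of 3 Ano1fl/fl arrays and on 3 of 3 Ctsk-Cre arrays, where it read 7.24, 6.07 and 7.30, and its fitted rise of 3.64 rests in part on readings below background. Replicate 2 was the lowest of the Ctsk-Cre arrays for 6 of the 7 markers, as it was for Siglecg, and replicate 1 was the lowest for Pax5. Over the 7 markers the normalized signal summed to 7685 to 9231 on the Ano1fl/fl arrays and 30286 to 59465 on the Ctsk-Cre arrays. The part of B cell RNA in the rise of Siglecg was not tested. Without replicate 2 of the Ctsk-Cre arrays the difference of Siglecg at the probe A_51_P305052 was 1.35.

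Mag, which encodes the myelin-associated glycoprotein, had 2 probes that gave different results, shown here as 30-base stretches with capitals marking the bases shared with probes of other genes.
Mag A_55_P2062757, bases 22 to 51: acctgtacaaaaggGACATGAAATAAATGT
Mag A_55_P2647868, bases 6 to 35: ttatttgccatgAGTTCAAGGCCAGTCTGG

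The first Mag probe, at 31684202 to 31684261 on chromosome 7, shares 16 bases with the probe of 1 other gene. It read 8.49, 8.33 and 8.50 on the Ano1fl/fl arrays against 9.34, 9.24 and 8.99 on the Ctsk-Cre arrays. The groups did not overlap, and the difference of 0.75 (SE 0.11, adjusted p = 0.00226) is a rise of 1.68-fold. The second, at 31692616 to 31692675, was designed on another transcript model and shares 18 bases with probes of 2 other genes, and a run of 16 of its bases or more is found in the promoter windows of 7 other genes. It read 5.36, 5.62 and 6.05 and then 5.13, 5.72 and 5.33. The groups overlapped, and the difference was -0.29 (95% interval -0.82 to 0.24, adjusted p = 0.312). When both probes were averaged, the difference of Mag was 0.23 and did not pass the test (adjusted p = 0.186).

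Myelin genes were compared beside Mag. Of 8 myelin markers, 6 were tested, of which 0 rose and 2 fell, beside 23% and 28.5% of all genes by brightest probe. The other 4 did not pass the test, and the median difference was -0.20. Mbp, the myelin basic protein, fell by 1.03. The falls became 1 without Ano1fl/fl replicate 2 or 3 or Ctsk-Cre;Ano1fl/fl replicate 2, and without the last of these 1 gene, Cnp, rose, by 0.44 (adjusted p = 0.0443). Mobp and Mal were not well above background on any array. The summed normalized signal of the list was 15678 to 20422 on the Ano1fl/fl arrays and 8350 to 10791 on the Ctsk-Cre arrays. Mbp was its brightest probe, with means of 13.92 and 12.89, and Cnp the next, at 10.44 and 10.62. The sum therefore mostly restates the fall of Mbp.

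Siglecf, the Siglec of eosinophils and alveolar macrophages, fell slightly at both probes. A_55_P2823856 read 8.35, 8.43 and 8.56 on the Ano1fl/fl arrays against 8.05, 7.56 and 7.83 on the Ctsk-Cre arrays, a difference of -0.63 (SE 0.14, adjusted p = 0.00971). A_51_P199475 read 6.95, 6.82 and 6.82 and then 6.60, 6.30 and 6.43, a difference of -0.42 (SE 0.10, adjusted p = 0.0139). The groups did not overlap at either probe. Since Siglec5 is listed as a name of Siglece and of Siglecf, and Siglece rose, the name Siglec5 has no single direction in these data.

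Eosinophil markers were mixed, with 3 of 6 higher and 2 lower, beside 23% and 28.5% of all genes by brightest probe. The other 1 did not pass the test, and the median difference was 0.13. Il5ra, a subunit of the interleukin receptor of eosinophils, rose by 2.30 and Ccr3, the eotaxin receptor, rose by 1.44. The rise of Ear6, 0.58 (adjusted p = 0.0497), had overlapping groups and was lost under 5 alternatives in processing and without any 1 of 5 arrays. The granule protein gene Prg2 fell by 2.28, and Epx, the eosinophil peroxidase, was at least 3.73-fold lower, being below background on all 3 Ctsk-Cre arrays. The summed normalized signal of the list was 2557 to 3005 and then 1603 to 1786. On the Ano1fl/fl arrays its brightest probe was Prg2, with a mean of 11.10, and the next was Ccr3, at 8.43. The fall of the sum therefore mostly restates that of Prg2. Neutrophil markers were mostly lower, with 7 of 10 lower and 1 higher, beside 28.5% and 23% of all genes, and a median of -1.33. The largest falls were Retnlg at -3.68, Mpo at -3.41 and Elane at -3.25, and Ltf was the 1 that rose, by 0.33. The summed normalized signal of the neutrophil markers was 318000 to 335350 and then 212460 to 264760.

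**Figure D3:**
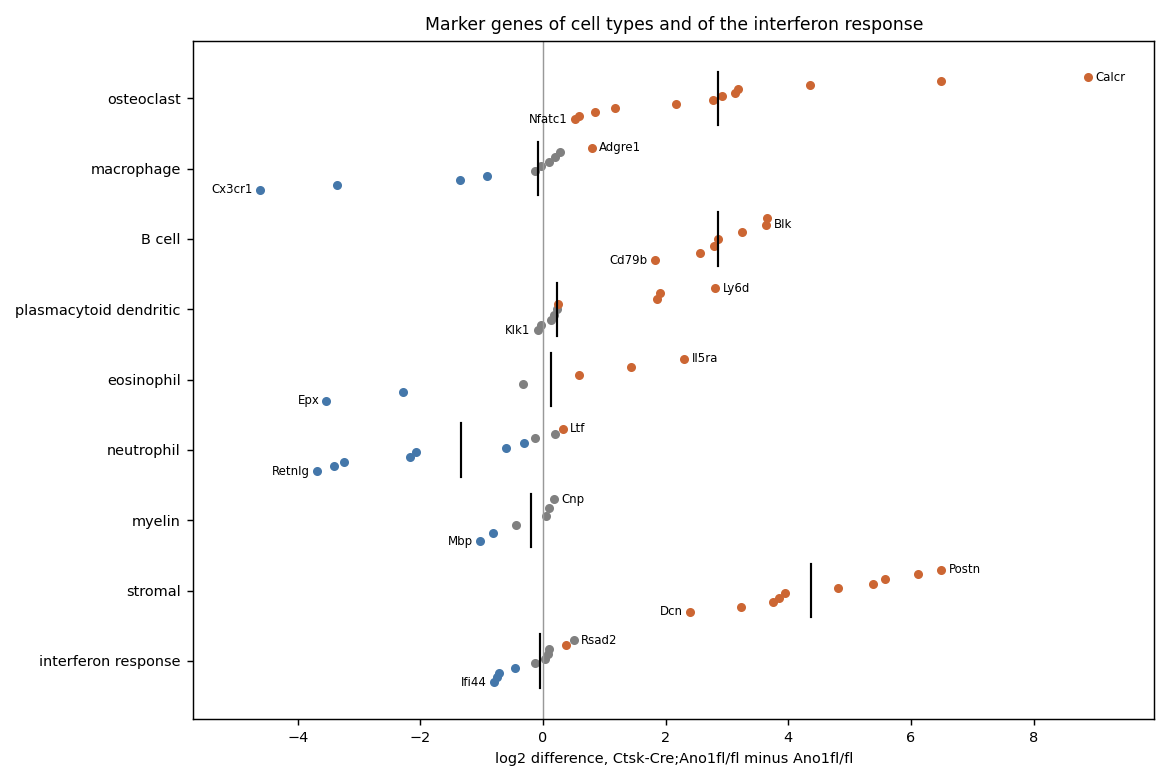
Log2 difference, Ctsk-Cre;Ano1fl/fl minus Ano1fl/fl (horizontal axis), of the brightest probe of each tested marker gene by list; orange rose, blue fell, grey did not pass the test, and black bars are medians. All osteoclast, B cell and stromal markers lie to the right of 0, and macrophage and eosinophil markers lie on both sides of it.

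The genes of Siglec signaling and of sialic acid were compared by the brightest probe of each gene. Among all 20645 genes tested this way, 23% rose and 28.5% fell, with a median difference of -0.06. Of 9 adaptor and kinase genes of the ITAM pathway, 6 rose, 0 fell and 3 did not pass the test, with a median difference of 0.65. Src, the kinase that osteoclasts need for their ruffled border, rose by 2.01, from 8.43, 8.83 and 8.89 to 10.72, 10.90 and 10.54. Fyn, another Src family kinase, rose by 1.13, and Syk, which binds phosphorylated ITAMs, rose by 0.94, from 13.72, 13.50 and 13.66 to 14.67, 14.57 and 14.48. Of the adaptor genes, Fcer1g rose by 0.26 (adjusted p = 0.0227), a call that was lost with scaling to the 75th percentile, at 0.22 (adjusted p = 0.118). Tyrobp, at 0.01, and Hcst, at -0.19 (adjusted p = 0.109), did not pass the test, and Hcst passed it with that scaling, at -0.28 (adjusted p = 0.0425).

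The effectors of ITIM receptors showed small differences. Ptpn6, which encodes SHP-1, rose by 0.25 (adjusted p = 0.0301) and Ptpn11, which encodes SHP-2, rose by 0.23 (adjusted p = 0.0333). Inpp5d, the lipid phosphatase SHIP-1, had a difference of -0.21 (adjusted p = 0.0893). The calls of Ptpn6 and Ptpn11 were lost with scaling to the 75th percentile, at 0.16 and 0.12, while Inpp5d at -0.29 then passed the test (adjusted p = 0.0247). The direction of these 3 genes was the same under both scalings. The call of Ptpn11 was also lost when any 1 array was left out, and the mean of its probes was 0.05 (adjusted p = 0.677).

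Genes that supply sialic acid or modify it were lower or did not pass the test. Of 8, 0 rose, 6 fell and 2 did not pass the test, with a median difference of -0.36. The falls became 4 with the replicate block, without Ano1fl/fl replicate 1 and without Ctsk-Cre;Ano1fl/fl replicate 3, since Nans (-0.28, adjusted p = 0.0199) and Slc35a1 (-0.30, adjusted p = 0.0194) were then lost, and 4 with the mean of probes. Cmah, the hydroxylase that turns the Neu5Ac form of sialic acid into Neu5Gc, fell by 0.64 at its brightest probe, but the mean of its probes was 0.20 and did not pass the test (adjusted p = 0.479). Casd1, which acetylates sialic acid, fell by 0.61 and Nanp, the phosphatase of the last step of synthesis, fell by 0.57. Siae, which removes acetyl groups from sialic acid, fell by 0.42 (adjusted p = 0.00415). Gne, whose enzyme starts the pathway, had a difference of -0.06 (adjusted p = 0.541), and Cmas, a later enzyme, -0.12 (adjusted p = 0.322). Cmah, Casd1 and Siae modify sialic acid, so only the falls of Nans, Nanp and Slc35a1 are of genes that supply it.

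Sialyltransferases, which attach sialic acid to glycans, moved both ways. Of 20, 16 were tested, of which 7 rose, 5 fell and 4 did not pass the test, with a median difference of 0.23. St8sia6, which extends sialic acid chains and is known to make ligands for Siglec-E, rose by 3.65, from 7.21, 7.38 and 7.54 to 10.89, 11.01 and 11.16 (SE 0.12, adjusted p = 1.13e-05). St8sia5 rose by 1.39 and St3gal6 by 1.29. St8sia1, which makes the ganglioside GD3, was at least 1.5-fold lower, being below background on the 3 Ctsk-Cre arrays, and St6galnac6 fell by 0.90. St6galnac1 fell by 0.73 (adjusted p = 0.0167), a call that was lost with no filter on dim probes, with the methods' t-test and with the replicate block (adjusted p = 0.0513, 0.0591 and 0.0557). St6gal1, which makes a glycan that Siglec-G binds, had a difference of -0.25 (adjusted p = 0.329). St6galnac2 had a difference of 0.15 at its brightest probe (adjusted p = 0.753), but the mean of its probes rose by 1.76 (adjusted p = 0.000618).

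Of 6 sialidases and their partners, 5 were tested, and 2 rose. Ctsa, the protective protein of the lysosomal sialidase, rose by 0.43, and Glb1, the galactosidase of the same complex, rose by 0.49. The sialidase gene Neu1 had a difference of 0.22 (adjusted p = 0.0688). It passed the test with normexp, with limma with trend and without Ano1fl/fl replicate 1 (adjusted p = 0.0356, 0.0187 and 0.0479), and 3 genes then rose. Of 4 sialylated partners of Siglecs, 3 were tested. Cd24a, the partner of Siglec-G and also a gene of B lineage cells, rose by 1.15, from 11.73, 11.69 and 11.69 to 12.86, 12.41 and 13.30, with replicate 2 again the lowest of the Ctsk-Cre arrays. Spn, the CD43 that Siglec-1 binds, rose by 0.24 (adjusted p = 0.0340), a call that scaling to the 75th percentile did not keep. Cd44 had a difference of -0.03 (adjusted p = 0.845) at its brightest probe, while 1 other Cd44 probe fell, and Muc1 was above background on 2 of the 6 arrays and was not tested.

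**Figure D4:**
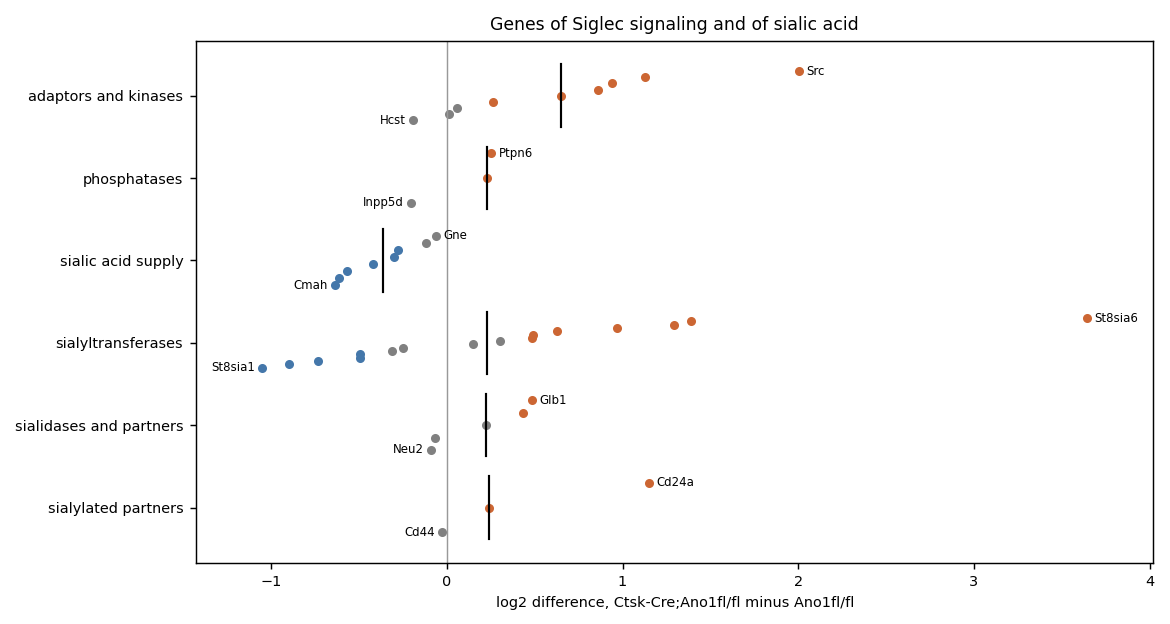
Log2 difference, Ctsk-Cre;Ano1fl/fl minus Ano1fl/fl (horizontal axis), of the brightest probe of each tested gene of Siglec signaling and of sialic acid by list; orange rose, blue fell, grey did not pass the test, and black bars are medians. St8sia6 at 3.65 stands apart from the other sialyltransferases. No gene of the sialic acid supply list, which includes genes that modify sialic acid, lies to the right of 0.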

How the data were processed

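The submitters' processing notes name Agilent Feature Extraction 10.7.1.1. The authors deposited the scanner intensity of every spot, with a processed signal from which background and trends within the array are removed. The deposited series matrix holds intensity values equal to the median spot brightness (largest difference 0). Probe sequences and mm9 coordinates come from the array files, and synonyms and promoter windows from RefSeq (GRCm38.p6).

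Control spots were left out and outlier spots set as missing; 14 probes lacking a value on some array were dropped. Log2 processed signals were quantile normalized, as the study's methods name, averaged per probe and fitted with limma 3.58.1 (lmFit and eBayes; R 4.3.3, data.table version 1.17.8), with Benjamini-Hochberg adjustment over 31848 probes, after the script was tested on simulated data. A probe was well above background where at least 0.5 of its spots were. A probe below background throughout 1 group has only a bound: the bright group's mean against, for each dim array, the higher of its lowest well above background signal and the probe's own. Python 3.11.15, pandas 2.3.3 and matplotlib 3.10.9 made tables and plots. Each array had 33480 to 34951 of 59305 spots well above background, 0 saturated and 143 to 252 outlier spots. Arrays correlated at 0.994 to 0.997 within and 0.944 to 0.950 between groups, and shared 1 scan.

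The members and lists were chosen with earlier results of these data known. All members are named with every probe. Each other list is named by up to 3 largest rises and 3 largest falls that passed the test with groups apart, or in full up to 4 genes. Added after their values were seen were Bst2, Nfatc1, Irf8, Tcf4, Nans, Slc35a1, Cmas, Siae, Cnp, Mertk, Cd68, Mx1, Pacsin1, Ear6 and Pax5. So were Tyrobp, Hcst, Fcer1g, Syk, Gne, St6gal1, St6galnac2 and Neu1. Some list genes that the rule picks are not reported here by name. Alternatives were scaling to the 75th percentile, normexp with offset 50, the series matrix, no filter or a stricter filter on dim probes, 1 value per gene, limma with trend, the methods' t-test, a replicate block, and leaving out each array.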

Additional observations from a re-analysis of the deposited data

How the results depend on the processing

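The tested Siglec probes and the 2 Siglecf probes, 14 in all, gave 209 differences over 16 alternatives, of which 207 kept their direction and side of the threshold, 0 reversed, 1 lost the call (Mag as the mean of its probes) and 1 gained it (Siglech as the mean of its probes, -1.39). The counts changed more. The 5 probes that fell became 3 when a probe had to be above background on all 6 arrays, 1 with the brightest probe of each gene and 2 with the mean of the probes of each gene, since fewer probes then enter. Falls of more than 2-fold, 4 at first, became 1 with the brightest probe and 2 with the mean of probes. Rises of more than 2-fold, 3 at first, became 1 with normexp and 1 with the series matrix values, under which the difference of Siglec15 was 2.95 and 3.72. Scaling to the 75th percentile moved the median of all probes to -0.14 and the share of rises among calls from 41.6% to 36.3%. Leaving out 1 array gave 5 to 6 rises (the sixth, without Ctsk-Cre;Ano1fl/fl replicate 2, is the Siglecg probe that was below background on the Ano1fl/fl arrays) and 5 falls, and 2 to 4 rises and 4 to 5 falls of more than 2-fold. The methods' t-test gave 10 of the tested member probes at its threshold and 10 after adjustment, beside 55.5% and 45.7% of all probes. Arrays with the same replicate number did not deviate alike (correlations of deviations -0.02, -0.08 and -0.09), which cannot tell whether those mice were paired by litter. With the replicate block 5 Siglec probes rose and 5 fell, as without it. Over all probes the block moved 6943 rises to 5988 and 9747 falls to 8162. Of 88 genes that passed the test in the other lists, 69 kept their call under every alternative that tested them (Calcr, Blk, Lum, Postn, Epx and St8sia1 were not tested when a probe had to be above background on all 6 arrays), 17 lost it under at least 1 and 2 reversed (Cmah and Nfatc1, as the mean of their probes). Leaving out any 1 of several arrays ended the calls of Fcer1g, Ptpn6, Ptpn11, Spn, Ltf, Pacsin1, Ear6 and Usp18, and leaving out Ano1fl/fl replicate 2 that of Ifit3. Siglec15, 2 Siglech probes and 2 probes not tested lie at or below background in 1 or both groups, which limits what their sizes show. The cause of these changes was otherwise not tested.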
